A study of Mus musculus with 18 samples.

Results

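The genes described here are 33 genes of nuclear receptor signalling that lie outside the core clock, namely 26 nuclear receptors and 7 coregulators. They were picked by name from the 14451 genes of the table with earlier results of these data known, by a rule that used none of their measured values, and all 33 were found there. The livers came from 18 wild-type male mice of 8 to 9 weeks kept in 12 h of light and 12 h of darkness, with 3 livers at each of zeitgeber time (ZT, hours after lights on) 1, 5, 9, 13, 17 and 21. Of the 5 mice killed per time point, the labels state that the 3 with the best RNA were sequenced, and the groups differ by the labels only in the time of day. PolyA RNA of whole liver was measured, so less RNA per cell and fewer cells of a type cannot be told apart.

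Nuclear receptors are transcription factors with a pocket for a small lipophilic ligand, such as a steroid, a thyroid hormone, a retinoid, an oxysterol, a fatty acid or a drug. Many bind DNA as a pair with a retinoid X receptor on repeats of a short element read AGGTCA, and several act alone or as orphan receptors without a known hormone. Coactivators such as the NCOA proteins and PGC-1beta, and corepressors such as NCOR1 and RIP140, are recruited by the receptor and set whether a target gene is transcribed. In liver these receptors are known for the control of lipid, bile acid, glucose and drug metabolism, and the clock proteins REV-ERB and ROR belong to the same family.

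The promoters of 29 of the 33 genes were found in RefSeq (GRCm38.p6), and 4 windows are shown, that of the gene with the largest rhythm and 1 example with a match to each of the 3 motifs found. Each is written 5′ to 3′ on the strand of its gene and ends at the base before a transcription start, and capitals mark motif matches. That of Ppard lies on the plus strand at chr17:28232504-28232699. It was shortened to its 196 bases upstream of annotated exons and holds none of the motifs searched. That of Nr1i3 lies on the plus strand at chr1:171213720-171213969 with an E-box (CACGTG), the element bound by CLOCK and BMAL1, starting 244 bases before the start. That of Nrip1 lies on the minus strand at chr16:76373828-76374077 with a match to the REV-ERB and ROR element searched as TNGGTCA, 79 bases before the start. That of Rxra, from the downstream one of its start sites, lies on the plus strand at chr2:27709042-27709291 and holds the receptor half-site AGGTCA 48 bases before the start and its reverse complement 87 bases before it.
Ppard: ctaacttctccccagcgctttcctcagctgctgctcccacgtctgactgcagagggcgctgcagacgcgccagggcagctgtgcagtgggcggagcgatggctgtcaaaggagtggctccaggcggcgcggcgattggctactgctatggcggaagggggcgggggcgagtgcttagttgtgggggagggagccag
Nr1i3: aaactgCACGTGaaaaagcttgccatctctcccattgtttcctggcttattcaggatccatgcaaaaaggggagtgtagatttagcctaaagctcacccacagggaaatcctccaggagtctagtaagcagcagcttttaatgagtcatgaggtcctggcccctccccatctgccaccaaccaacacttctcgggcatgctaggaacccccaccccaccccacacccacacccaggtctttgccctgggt
Nrip1: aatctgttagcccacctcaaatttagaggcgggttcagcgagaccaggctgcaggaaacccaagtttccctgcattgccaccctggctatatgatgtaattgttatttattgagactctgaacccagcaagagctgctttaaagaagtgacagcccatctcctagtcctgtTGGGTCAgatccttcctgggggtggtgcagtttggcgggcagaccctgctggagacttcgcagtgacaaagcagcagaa
Rxra: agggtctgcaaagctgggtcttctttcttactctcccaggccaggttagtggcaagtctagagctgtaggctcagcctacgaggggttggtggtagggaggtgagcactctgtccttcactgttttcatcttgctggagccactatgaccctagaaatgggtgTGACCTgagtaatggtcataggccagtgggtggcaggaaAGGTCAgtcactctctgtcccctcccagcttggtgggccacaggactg

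Both strands of the 250 bases before each start were searched. The E-box was present in 6.02% of all 32851 promoters, in 6.86% of all 27025 genes and in 3 of the 29 genes (Nr1i3, Rara and Thrb). TNGGTCA was present in 9.19% of promoters, 10.5% of all genes and 4 of the 29 (Nr2f1, Nrip1, Rarb and Rxrg), and AGGTCA in 14.0% of promoters, 15.8% of all genes and 7 of the 29 (Nr5a2, Nr6a1, Pparg, Rarg, Rxra, Rxrg and Thrb). The letters TAGGTCA count as a match of both. The D-box TTANGTAA, bound by DBP, was present in 2.06% of promoters, 2.44% of all genes and none of the 29. A gene with several starts had several chances of a match, and a match describes the letters in the window and no more.

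The livers held 10268168 to 23242842 estimated reads, with a median of 12078875. Mean correlations of each liver with the others of its time point, across genes on the log scale, were between 0.986 and 0.990. The lowest was that of ZT5 replicate 1. No liver stood apart by this measure, which does not resolve single genes or cell types. The times on the labels were checked with 4 clock genes. Arntl was highest at ZT1, Nr1d1 at ZT5, Dbp at ZT9 and Per2 at ZT13, and all 4 passed each of the 3 tests used below. Markers of hepatocytes summed to between 72434 and 104763 in a liver, against 117.0 to 301.9 for Kupffer cells and 143.8 to 316.2 for sinusoidal endothelial cells, in the normalised read counts defined next.

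Values are normalised read counts, that is, estimated reads per 1000000 reads of an effective library size. For a comparison between genes they were divided by the length of the merged exons in kb. On this scale Hnf4a, the receptor that defines the hepatocyte, was the highest of the 33 at 112.9 ± 18.5 per kb (SD, n = 18). The common partner Rxra followed at 60.4 ± 8.46 per kb and Nr1i3, the drug sensor CAR, at 45.5 ± 14.9. The oxysterol receptor Nr1h3 (LXRalpha) stood at 32.5 ± 3.70 per kb and the drug sensor Nr1i2 (PXR) at 26.5 ± 4.24. Between neighbours in this order the livers overlapped, except for the steps from Hnf4a to Rxra and from Nr2f6 at 17.5 ± 2.28 per kb to Nr5a2 at 9.47 ± 1.63.

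**Figure D1:**
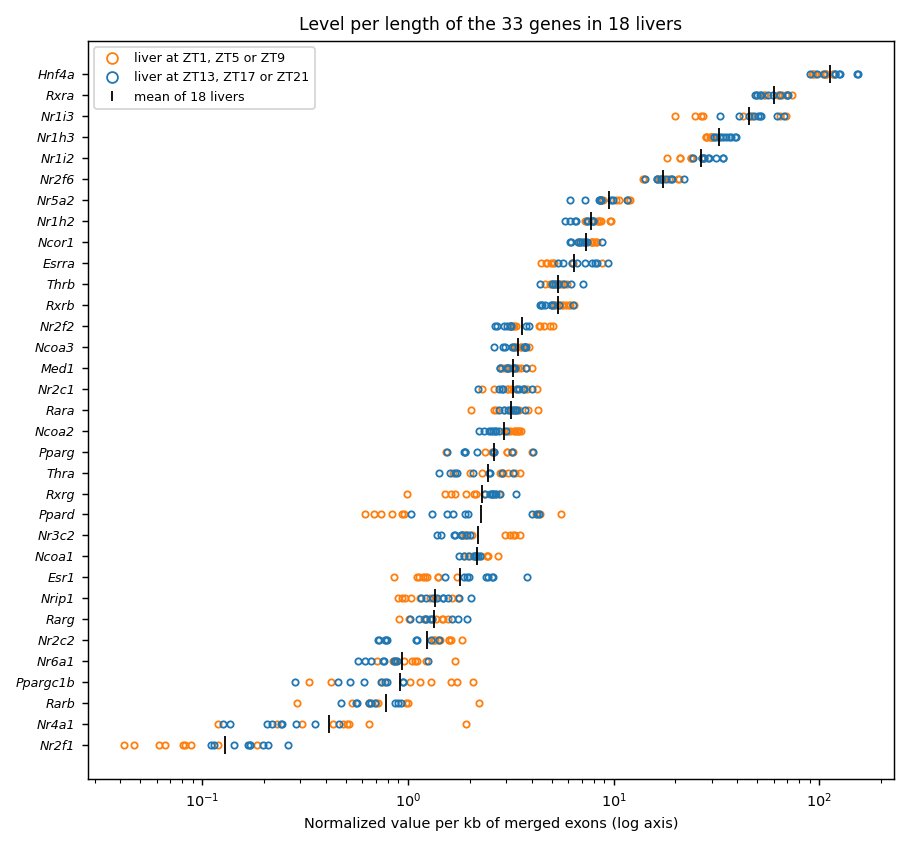
Normalised read count per kb of merged exons (log axis) of each of the 33 genes, with a circle for each of the 18 livers, orange for ZT1, ZT5 and ZT9 and blue for ZT13, ZT17 and ZT21, and a bar at the mean. The means run from 0.128 per kb for Nr2f1 to 112.9 for Hnf4a, and the 6 lowest livers of Ppard are those of ZT5 and ZT9.

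The least abundant of the 33 was Nr2f1, at 0.128 ± 0.0623 per kb and 2 to 19 reads per liver. Nr4a1 rested on 4 to 70 reads per liver, Ppargc1b on 14 to 124, Rarb on 22 to 144 and Rxrg on 24 to 152. Each of the other 28 genes had at least 42 reads in every liver. No gene of the 33 was at the lowest value of a liver, which stands for 0 reads.

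A 24 h cosine was fitted to log2(value + 1) of every gene with limma, and an adjusted p under 0.05 over the 14449 genes tested is called a rhythm here. The amplitude is the height of the fitted curve above its middle on this log2 scale, and the fitted fold is that from trough to peak. Of the 33 genes 21 passed, where 35.3% of all genes tested did. They were 18 of 26 receptors and 3 of 7 coregulators. The median amplitude was 0.24 over the 33, 0.25 over the receptors and 0.11 over the coregulators, against 0.16 over all genes tested. The fitted fold was at least 1.5 in 12 genes, all of them rhythmic, beside 2290 rhythmic genes with such a fold among all 14449 tested. It was at least 2 in 5, which were Ppard, Esr1, Ppargc1b, Nr4a1 and Nr1i3. A test of any difference between the 6 time points (limma F test), which assumes no shape, passed for 18 of the 33 beside 26.3% of all genes. The rank test JTK passed for 11 of them beside 14.0%, and for 3 to 11 with 1 liver left out. Over all genes JTK passed for 2018, and for 1127 to 1793 with 1 liver left out. In 11 genes all 3 tests passed, and in 12 none did. A fold of at least 2, all 3 tests passed and none passed were not counted over all genes.

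Of the 21 rhythmic genes 11 had a fitted peak between ZT0 and ZT12 and 10 had one between ZT12 and ZT24. The share of light-phase peaks was near the 51.6% among all rhythmic genes. Of all genes tested, 18.2% were called with a light-phase peak and 17.1% with a dark-phase peak. With each liver scaled to the same column total the 33 genes gave 12 and 8, and the share of light-phase peaks among all rhythmic genes went from 51.6% to 67.9%. With equal medians the 33 genes gave 11 and 10 again, and the share over all rhythmic genes was 46.6%. With equal column totals Ncoa1 was gained, with an amplitude of 0.16 (adjusted p = 0.0333 by limma), and Rxrg and Nr2f1 were lost.

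**Figure D2:**
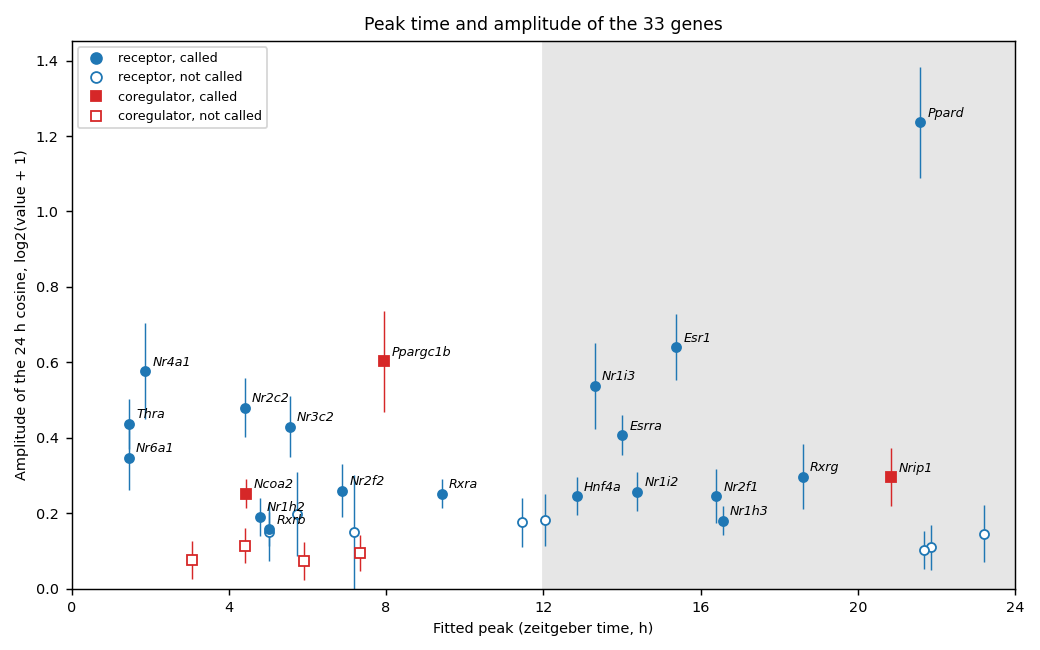
Fitted peak (zeitgeber time, h) against the amplitude of the 24 h cosine on the log2(value + 1) scale for the 33 genes, with circles for receptors, squares for coregulators, filled symbols for genes that passed limma and bars for the SE of the amplitude. Grey marks darkness. Ppard lies above all others with an amplitude of 1.24, the next being Esr1 at 0.64.

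Ppard encodes PPARdelta, a fatty acid sensor. Its 3 livers at ZT1 read 31.5, 41.8 and 32.8 normalised read counts, those at ZT5 5.55, 7.04 and 5.14, at ZT9 4.64, 6.29 and 7.17, at ZT13 9.88, 7.77 and 11.6, at ZT17 12.5, 14.3 and 14.7, and at ZT21 31.9, 30.3 and 32.7. The livers of ZT21 and ZT1 lay above all 12 others, and the drop fell between ZT1, at 35.4 ± 5.61 (SD, n = 3), and ZT5, at 5.91 ± 0.998. The amplitude was 1.24 ± 0.15 (SE) with a peak at 21.6 ± 0.45 h and a fitted fold of 5.55 (adjusted p = 2.45e-05 by limma). The means of ZT1 and ZT5 differed 5.98-fold on the scale without the added 1, which is not comparable with the fitted fold. The fall between these 2 times was steeper than that of the fitted curve. Of all genes tested 0.291% had a larger amplitude. Its relative Pparg, the adipogenic PPARgamma, had means between 5.93 and 8.99 and passed no test (amplitude 0.20 ± 0.11, adjusted p = 0.342).

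The LXR genes encode oxysterol sensors that raise cholesterol excretion and lipogenesis. Nr1h3 (LXRalpha) read 74.8, 76.8 and 83.2 at ZT1, 71.1, 76.0 and 74.4 at ZT5, 70.8, 74.8 and 71.3 at ZT9, 98.4, 86.1 and 88.6 at ZT13, 98.8, 91.8 and 94.2 at ZT17, and 83.0, 77.7 and 79.0 at ZT21. All 6 livers of ZT13 and ZT17 were above all 12 others, in a narrow range. The amplitude was 0.18 ± 0.04 with a peak at 16.6 h and a fitted fold of 1.28 (adjusted p = 0.00433), the smallest fold among the genes that passed all 3 tests. Nr1h2 (LXRbeta) went the other way, with means from 22.5 ± 2.25 at ZT17 to 30.0 ± 1.93 at ZT5 and a peak at 4.79 h. It passed the cosine test (amplitude 0.19 ± 0.05, adjusted p = 0.0197) but neither other test, and it no longer passed without ZT17 replicate 2 or ZT5 replicate 3 (adjusted p = 0.0523 and 0.0506).

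The sensors of drugs and bile acids, CAR and PXR, share many targets among the cytochrome P450 genes. Nr1i3 (CAR), whose promoter carries the E-box shown above, read 110.4, 117.0 and 120.0 at ZT1, 87.7, 188.9 and 205.4 at ZT5, 305.7, 283.4 and 207.9 at ZT9, 212.1, 297.6 and 201.1 at ZT13, 275.3, 230.4 and 221.7 at ZT17, and 180.2, 228.9 and 144.7 at ZT21. The ZT1 livers were low and close together, while ZT5 spanned more than a doubling, with ZT5 replicate 1 below all 17 others. The amplitude was 0.54 ± 0.11 with a peak at 13.3 h and a fitted fold of 2.11 (adjusted p = 0.0045). It passed the test of time points (adjusted p = 0.0181) and not JTK (adjusted p = 0.159), and without ZT5 replicate 1 the amplitude was 0.49. In the annotation 3304 bases of its 4414 exon bases overlap exons of Tomm40l on the opposite strand. Tomm40l had means between 20.9 and 28.8 and did not pass (adjusted p = 0.652). How many shared reads were given to either gene was not tested.

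Nr1i2 (PXR) read 46.4, 61.7 and 60.7 at ZT1, 68.9, 53.5 and 54.1 at ZT5, 70.1, 68.4 and 61.0 at ZT9, 80.9, 86.5 and 86.8 at ZT13, 70.6, 74.5 and 69.5 at ZT17, and 73.4, 68.5 and 62.0 at ZT21. The 3 livers of ZT13 were above all others, and those of ZT1 and ZT5 overlapped. The amplitude was 0.26 ± 0.05 with a peak at 14.4 h and a fitted fold of 1.43 (adjusted p = 0.00279), and all 3 tests passed.

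Among the retinoid X receptors, which are the partners of PPAR, LXR, CAR, PXR and the thyroid and retinoic acid receptors, Rxra was by far the most abundant in liver. It read 294.4, 297.5 and 270.7 at ZT1, 348.5, 379.1 and 344.1 at ZT5, 362.3, 377.0 and 405.0 at ZT9, 381.0, 353.9 and 384.5 at ZT13, 285.7, 271.4 and 326.1 at ZT17, and 266.4, 280.4 and 306.7 at ZT21. The 9 livers from ZT5 to ZT13 were above the 9 others. The amplitude was 0.25 ± 0.04 with a peak at 9.41 h and a fitted fold of 1.42 (adjusted p = 0.000256), and all 3 tests passed. Rxrb had means from 18.6 ± 1.33 at ZT17 to 23.95 ± 0.573 at ZT5. It passed the cosine test alone (amplitude 0.16 ± 0.05, peak at 5.03 h, adjusted p = 0.0343), and it did not pass without any one of the 3 livers of ZT5, ZT13 replicate 3 and ZT17 replicates 1 and 2, the adjusted p reaching 0.0824 without ZT17 replicate 2.

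Rxrg was the least abundant of the 3. It read 4.81, 5.41 and 3.49 at ZT1, 4.90, 3.87 and 6.35 at ZT5, 4.38, 2.28 and 3.70 at ZT9, 5.86, 5.78 and 5.86 at ZT13, 7.72, 5.93 and 5.46 at ZT17, and 6.09, 6.17 and 6.43 at ZT21. The livers of darkness were mostly higher than those of light, with an overlap through ZT5 replicate 3. The amplitude was 0.30 ± 0.09 with a peak at 18.6 h and a fitted fold of 1.51 (adjusted p = 0.0333). It passed the test of time points (adjusted p = 0.0337) and not JTK (adjusted p = 0.196). The call was lost with equal column totals (adjusted p = 0.0799) and without any one of ZT5 replicate 2, ZT9 replicate 3, ZT17 replicate 1 or ZT21 replicate 3 (adjusted p of 0.0613, 0.0613, 0.075 and 0.0538).

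The thyroid hormone receptors bind T3, and in liver THRbeta is the main form. Thra read 14.1, 12.9 and 13.2 at ZT1, 16.2, 13.4 and 15.3 at ZT5, 7.65, 10.5 and 9.21 at ZT9, 7.39, 7.81 and 8.04 at ZT13, 9.60, 6.54 and 11.4 at ZT17, and 11.5, 13.2 and 14.9 at ZT21. The 9 livers from ZT21 to ZT5 were above the 9 from ZT9 to ZT17. The amplitude was 0.44 ± 0.07 with a peak at 1.46 h and a fitted fold of 1.83 (adjusted p = 0.000317), and all 3 tests passed. Exons of Thra share 263 bases with Nr1d1 on the opposite strand. Nr1d1 was at 117 ± 25 at ZT5, at 57.5 ± 20.7 at ZT9 and at 2.80 ± 0.615 at ZT21. Both genes had their highest mean at ZT5 and were low at ZT13 and ZT17, while at ZT21 Thra was high and Nr1d1 low, and at ZT9 the reverse. The part of shared reads was not tested here either. Thrb had means between 36.7 and 45.3 and passed no test (amplitude 0.10 ± 0.05, adjusted p = 0.238).

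The retinoic acid receptors passed no test. Rara had means from 10.6 ± 1.58 at ZT1 to 15.6 ± 3.01 at ZT9 (amplitude 0.18 ± 0.06, adjusted p = 0.0945 for the cosine and 0.0704 for the time points), and Rarg had means between 4.77 and 6.82 (amplitude 0.18 ± 0.07, adjusted p = 0.109). Rarb had means between 3.12 and 5.67 (amplitude 0.15 ± 0.15, adjusted p = 0.699). Its spread came mostly from ZT5, where the livers read 11.7, 1.52 and 3.77, which include the highest and the lowest of all 18. The highest, ZT5 replicate 1, also had the highest summed stellate cell markers at 335.5 beside 181.8 to 276.2 in the other livers. Its summed Kupffer and sinusoidal endothelial markers, at 301.9 and 316.2, were likewise the highest of the 18, and the part of these cells in the value was not tested. Without that liver the amplitude of Rarb was 0.09. Its exons also share 1793 bases with Top2b on the opposite strand, whose means lay between 45.2 and 57.1.

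Among the steroid receptors and their orphan relatives, Esr1 (oestrogen receptor alpha) had the largest rhythm. It read 16.9, 15.1 and 16.1 at ZT1, 19.2, 11.7 and 16.5 at ZT5, 15.5, 19.1 and 23.6 at ZT9, 51.8, 35.6 and 33.6 at ZT13, 35.0, 32.9 and 25.7 at ZT17, and 20.6, 26.5 and 27.0 at ZT21. The livers of ZT13 and ZT17 were above all 9 livers of the light phase, and the rise fell between ZT9, at 19.4 ± 4.02, and ZT13, at 40.3 ± 9.94. The amplitude was 0.64 ± 0.09 with a peak at 15.4 h and a fitted fold of 2.43 (adjusted p = 0.000116), and all 3 tests passed.

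Esrra (ERRalpha), an orphan receptor of mitochondrial and oxidative genes, also peaked in darkness but rose earlier than Esr1. Its mean went from 22.2 ± 0.312 at ZT5 to 31.4 ± 6.27 at ZT9 and was highest at ZT17, while that of Esr1 was highest at ZT13. It read 19.4, 20.8 and 20.6 at ZT1, 21.9, 22.5 and 22.2 at ZT5, 27.6, 28.02 and 38.6 at ZT9, 41.3, 29.1 and 32.0 at ZT13, 36.3, 35.8 and 34.3 at ZT17, and 27.4, 23.5 and 25.02 at ZT21. The 9 livers from ZT9 to ZT17 were above the 9 others. The amplitude was 0.41 ± 0.05 with a peak at 14.0 h and a fitted fold of 1.76 (adjusted p = 6.73e-05), and JTK gave it the lowest adjusted p of the 33 at 0.00758.

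Nr3c2 (mineralocorticoid receptor) peaked in the light phase instead. It read 13.3, 12.4 and 12.3 at ZT1, 19.3, 21.1 and 22.7 at ZT5, 12.3, 21.6 and 20.2 at ZT9, 8.97, 10.9 and 11.9 at ZT13, 10.9, 9.33 and 11.7 at ZT17, and 13.0, 11.9 and 12.6 at ZT21. The ZT5 livers and all ZT9 livers except replicate 1 were above the rest. The amplitude was 0.43 ± 0.08 with a peak at 5.55 h and a fitted fold of 1.81 (adjusted p = 0.00189), and all 3 tests passed.

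Nr4a1 (NUR77), an immediate early gene, was low throughout. It read 1.70, 1.77 and 6.74 at ZT1, 1.82, 1.52 and 2.27 at ZT5, 0.809, 0.419 and 1.08 at ZT9, 0.861, 0.445 and 0.999 at ZT13, 0.720, 0.476 and 0.848 at ZT17, and 0.767, 1.62 and 1.24 at ZT21. The livers of ZT1 and ZT5 were above all of ZT9, ZT13 and ZT17, and ZT1 replicate 3 stood far above its group. The amplitude was 0.58 ± 0.13 with a peak at 1.87 h and a fitted fold of 2.23 (adjusted p = 0.00603). Without ZT1 replicate 3 the amplitude was 0.42, the fitted fold 1.79 and the adjusted p 0.00224. JTK did not pass (adjusted p = 0.0852).

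**Figure D3:**
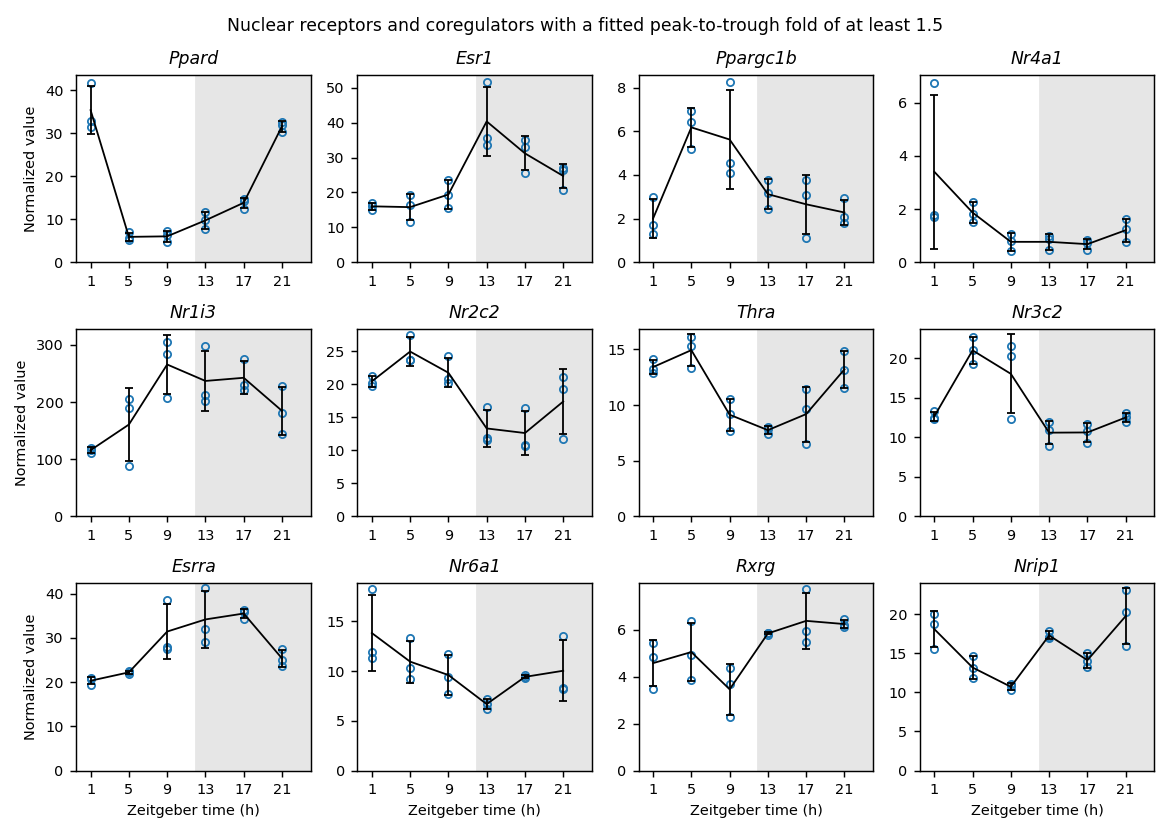
Normalised read count by zeitgeber time (h) for the 12 genes with a fitted fold of at least 1.5, with a circle for each liver, the line through the means and bars for the SD (n = 3). Each vertical axis starts at 0 and grey marks darkness. Ppard falls from 35.4 at ZT1 to 5.91 at ZT5, Esr1 rises from 19.4 at ZT9 to 40.3 at ZT13, and ZT1 replicate 3 of Nr4a1 lies apart at 6.74.

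The testicular orphan receptor gene Nr2c2 (TR4) read 21.3, 20.2 and 19.8 at ZT1, 23.7, 27.5 and 23.6 at ZT5, 20.1, 24.2 and 20.8 at ZT9, 11.6, 11.8 and 16.5 at ZT13, 10.6, 10.8 and 16.4 at ZT17, and 11.7, 21.1 and 19.3 at ZT21. All 9 livers of the light phase were above those of ZT13 and ZT17, and ZT21 replicate 1 lay with the latter. The amplitude was 0.48 ± 0.08 with a peak at 4.41 h and a fitted fold of 1.95 (adjusted p = 0.000553), and all 3 tests passed. Exons of Nr2c2 share 4590 of 14935 bases with Mrps25 on the opposite strand, which had means between 15.9 and 21.3, was highest at ZT21 and did not pass (adjusted p = 0.193). Its relative Nr2c1 (TR2) had means between 12.7 and 16.1 and passed no test (amplitude 0.15 ± 0.08, adjusted p = 0.279).

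Nr6a1 (GCNF), known as a germ cell receptor, read 11.3, 18.3 and 11.9 at ZT1, 10.3, 13.3 and 9.20 at ZT5, 7.70, 11.7 and 9.43 at ZT9, 6.17, 6.69 and 7.17 at ZT13, 9.57, 9.27 and 9.41 at ZT17, and 8.20, 13.6 and 8.33 at ZT21. The ZT13 livers were the lowest of all 18, and 1 liver of ZT1 reached 18.3. The amplitude was 0.35 ± 0.08 with a peak at 1.46 h and a fitted fold of 1.62 (adjusted p = 0.0121). It passed the test of time points (adjusted p = 0.0416) and not JTK (adjusted p = 0.196).

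Hnf4a, needed for the hepatocyte programme, read 447.8, 448.7 and 463.4 at ZT1, 524.1, 522.5 and 503.9 at ZT5, 561.2, 514.1 and 563.6 at ZT9, 741.1, 743.9 and 610.5 at ZT13, 576.4, 511.4 and 574.5 at ZT17, and 602.9, 436.0 and 469.4 at ZT21. The 3 livers of ZT13 were above all others, while the ZT21 livers spanned more than the range of ZT1, ZT5, ZT9 and ZT17 together. The amplitude was 0.24 ± 0.05 with a peak at 12.8 h and a fitted fold of 1.40 (adjusted p = 0.00372), and all 3 tests passed. Other orphan receptors of liver metabolism had no call. Nr5a2 (LRH-1), which drives bile acid synthesis genes, had means between 48.4 and 67.7 (amplitude 0.15 ± 0.08, adjusted p = 0.268), and Nr2f6 had means between 46.9 and 58.4 (amplitude 0.11 ± 0.06, adjusted p = 0.307).

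Nr2f2 (COUP-TFII), known from venous endothelium as well as hepatocytes, had means from 24.6 ± 2.56 at ZT21 to 41.1 ± 3.39 at ZT5. It passed the cosine test (amplitude 0.26 ± 0.07, peak at 6.88 h, adjusted p = 0.0236) and the test of time points (adjusted p = 0.0026), but not JTK (adjusted p = 0.238). Without ZT5 replicate 2 or ZT5 replicate 3 the cosine no longer passed (adjusted p = 0.0561 and 0.0557). Of 8 sinusoidal endothelial markers 3 were rhythmic by the cosine, a share near the 35.3% of all genes. These were Kdr, Stab2 and Stab1, with peaks at 6.91, 7.88 and 9.19 h. In limma's test of time points and in JTK 0 of 8 passed. At an unadjusted p under 0.05, 6 of the 8 passed the cosine, 2 the test of time points and 0 JTK. The share of all genes at this looser threshold was not computed, and the 35.3% is no measure for it. The sum over the 8 markers ran from 173.8 to 261.5 at ZT1, 256.1 to 316.2 at ZT5 and 228.2 to 287.5 at ZT9. It ran from 202.2 to 280.8 at ZT13, 143.8 to 258.2 at ZT17 and 146.2 to 217.0 at ZT21. From ZT1 to ZT21 the means of Nr2f2 were 27.7, 41.1, 35.4, 26.2, 31.0 and 24.6. No marker was at the lowest value of a liver, and the part of sinusoidal endothelial cells in the Nr2f2 values was not tested. Nr2f1 (COUP-TFI) passed the cosine test (amplitude 0.24 ± 0.07, adjusted p = 0.0345) on 2 to 19 reads per liver. It no longer passed without any one of ZT1 replicates 2 and 3, ZT5 replicates 2 and 3, the 3 livers of ZT13 and ZT17 replicate 3, with an adjusted p of up to 0.0892, nor with equal column totals (adjusted p = 0.0579).

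Ppargc1b encodes PGC-1beta, a coactivator of ERR and SREBP. It read 1.70, 1.32 and 2.99 at ZT1, 6.93, 6.43 and 5.18 at ZT5, 4.55, 8.25 and 4.08 at ZT9, 3.15, 2.43 and 3.78 at ZT13, 1.13, 3.07 and 3.77 at ZT17, and 1.82, 2.94 and 2.09 at ZT21. All 6 livers of ZT5 and ZT9 were above the 12 others. The amplitude was 0.60 ± 0.13 with a peak at 7.96 h and a fitted fold of 2.31 (adjusted p = 0.00634), and JTK did not pass (adjusted p = 0.13). Of 8 Kupffer cell markers 4 were rhythmic by the cosine, beside 35.3% of all genes, with peaks between 8.10 and 8.83 h. The test of time points passed for 1 of 8 and JTK for 0 of 8. At an unadjusted p under 0.05, 6 of the 8 passed the cosine, 3 the test of time points and 3 JTK, again without a share of all genes at that threshold. The sum over the 8 markers was 138.2 to 265.2 at ZT1, 228.9 to 301.9 at ZT5 and 237.4 to 285.2 at ZT9. It was 219.9 to 282.1 at ZT13, 117.9 to 270.9 at ZT17 and 117.0 to 187.0 at ZT21. None of the markers was at the lowest value of a liver, and the part of Kupffer cells in the Ppargc1b values was not tested.

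Nrip1 (RIP140), a corepressor whose promoter window shown above holds TGGGTCA, had an uneven course. It read 20.04, 15.5 and 18.8 at ZT1, 13.1, 11.8 and 14.7 at ZT5, 10.8, 11.1 and 10.3 at ZT9, 17.9, 16.9 and 17.1 at ZT13, 13.2, 15.1 and 14.1 at ZT17, and 23.1, 15.9 and 20.2 at ZT21. The ZT9 livers were the lowest of all 18, and ZT17 lay below both ZT13 and ZT21 without overlap. The test of time points (adjusted p = 0.00121) gave a lower adjusted p than the cosine (0.0181), whose amplitude was 0.30 ± 0.08 with a peak at 20.9 h and a fitted fold of 1.51. Without ZT21 replicate 1 the cosine no longer passed (adjusted p = 0.0511).

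Ncoa2 (SRC-2, GRIP1), a p160 coactivator, read 52.9, 49.0 and 46.0 at ZT1, 53.6, 55.6 and 51.1 at ZT5, 47.8, 54.0 and 52.1 at ZT9, 39.5, 40.6 and 36.5 at ZT13, 41.3, 34.8 and 38.6 at ZT17, and 42.2, 47.2 and 43.3 at ZT21. The 6 livers of ZT13 and ZT17 were below the 12 others. The amplitude was 0.25 ± 0.04 with a peak at 4.45 h and a fitted fold of 1.42 (adjusted p = 0.000312), and Ncoa2 was the only one of the 7 coregulators to pass all 3 tests. The other p160 genes Ncoa1 and Ncoa3, the corepressor Ncor1 and the Mediator subunit Med1 passed none. Their amplitudes lay between 0.07 and 0.11 with SEs of 0.05, and their adjusted p for the cosine between 0.146 and 0.472.

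Related genes were then compared within each liver, as the difference of their log2(value + 1), in 6 pairs. A 24 h cosine in this difference was tested by a two-sided permutation test over the livers with 100000 resamples, adjusted over the 6 pairs. Nr1h3 minus Nr1h2 ran from 1.28 ± 0.08 (SD, n = 3) at ZT5 to 2.04 ± 0.08 at ZT17, with an amplitude of 0.37 ± 0.05 (SE, permutation adjusted p = 0.00036), so the balance of the LXR transcripts shifted to LXRalpha at night. Rxra minus Rxrb ran from 3.66 ± 0.02 at ZT1 to 4.16 ± 0.25 at ZT13 (amplitude 0.24 ± 0.04, permutation adjusted p = 0.00084). Thrb minus Thra ran from 1.30 ± 0.13 at ZT5 to 2.10 ± 0.15 at ZT13 (amplitude 0.39 ± 0.08, permutation adjusted p = 0.0016). Nr2c2 minus Nr2c1 went from 0.74 ± 0.16 at ZT9 to -0.34 ± 0.23 at ZT17 (amplitude 0.47 ± 0.10, permutation adjusted p = 0.00207). In these last pairs the difference itself had a rhythm, which the separate calls of Thra and not Thrb, and of Nr2c2 and not Nr2c1, do not show by themselves. For Ncoa2 minus Ncoa1 (amplitude 0.14 ± 0.05, permutation adjusted p = 0.0657) and Nr1i3 minus Nr1i2 (0.30 ± 0.14, permutation adjusted p = 0.147) no rhythm of the difference was detected. In the latter pair the SD at ZT5 was 0.87.

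**Figure D4:**
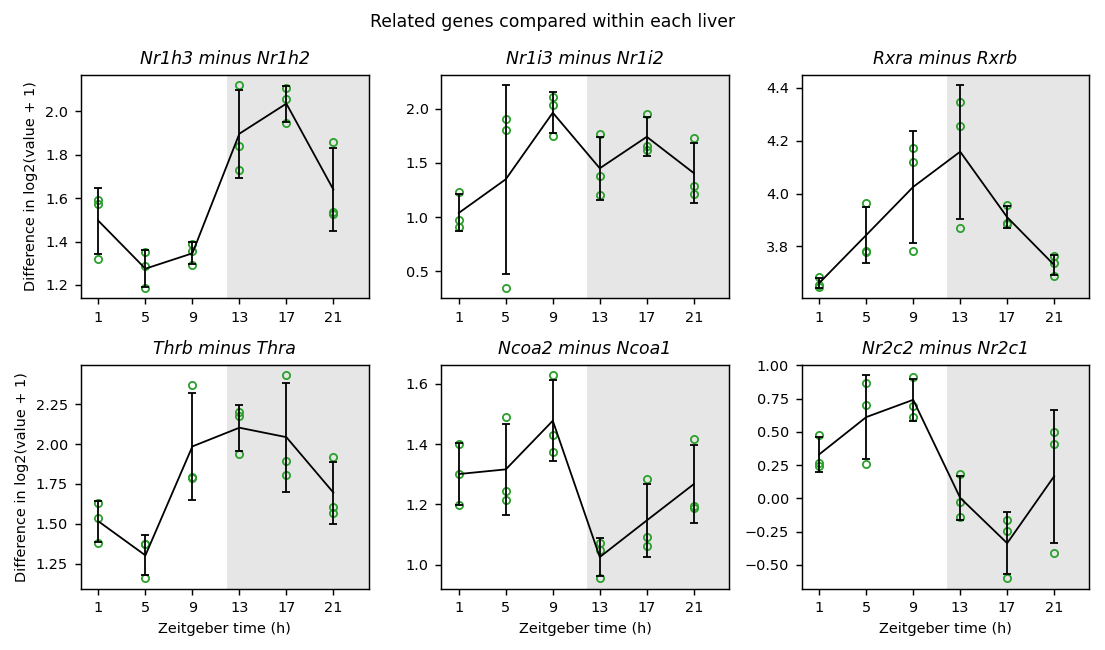
Difference in log2(value + 1) between related genes in the same liver by zeitgeber time (h), with a circle for each liver, a line through the means and bars for the SD (n = 3). The axes do not start at 0 and differ between panels. The Nr1h3 minus Nr1h2 difference goes from 1.28 at ZT5 to 2.04 at ZT17, and that of Nr2c2 and Nr2c1 changes sign, to -0.34 at ZT17.

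Of 7 further nuclear receptors measured, 4 were rhythmic by the cosine, beside 35.3% of all genes tested. These were Nr0b2 (SHP, the repressor induced by bile acids; amplitude 0.91, peak at 0.42 h), Ppara (the fatty acid receptor of fasting; 0.52, peak at 8.33 h), Nr1h4 (the bile acid receptor FXR; 0.25) and Nr3c1 (the glucocorticoid receptor; 0.16). Ppara and Ppard were thus both rhythmic with peaks at 8.33 and 21.6 h. Of the clock receptors, Nr1d1 and Nr1d2 were rhythmic with amplitudes of 2.79 and 1.78, both above the 1.24 of Ppard. Among 19 further coregulators 7 were rhythmic, a share near the 35.3% of all genes, with amplitudes such as those of Ncoa5 (0.65), Ppargc1a (0.34) and Kat2b (0.32).

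Known targets of the receptors were counted in the same way, and their calls are given beside the 35.3% of all genes without a test of the lists. Of 10 LXR targets 7 were rhythmic, 6 with a peak between ZT0 and ZT12 and 1 between ZT12 and ZT24. Of all rhythmic genes 51.6% peaked between ZT0 and ZT12. Among the 7 were the sterol exporters Abcg8 (amplitude 1.13, peak at 6.63 h) and Abcg5 (0.93). The bile acid enzyme Cyp7a1 (0.91, peak at 15.3 h) and the lipogenic factor Srebf1 (0.57, peak at 11.9 h) were others, while Nr1h3 peaked at 16.6 h. Of 12 CAR and PXR targets 10 were rhythmic, 4 with a peak between ZT0 and ZT12 and 6 between ZT12 and ZT24. They were led by Cyp2b10 (1.64, peak at 17.5 h) and the haem synthesis enzyme Alas1 (1.15, peak at 13.2 h). Alas1 passed neither the test of time points (limma adjusted p = 0.0828) nor JTK (adjusted p = 0.13). The P450 reductase Por (1.06, peak at 11.9 h) and Cyp2c55 (0.53, peak at 1.60 h) followed. Nr1i3 and Nr1i2 peaked at 13.3 and 14.4 h. Thyroid hormone targets were rhythmic in 6 of 7 cases, with Thrsp (1.34, peak at 14.5 h), Dio1 (0.76, 12.9 h), Klf9 (0.56, 4.80 h) and Hr (0.44, 20.5 h) the largest. For ERRalpha they were 4 of 8, among them Pdk4 (1.46, peak at 22.1 h), Idh3a (0.23) and Cycs (0.18). The 4 of 8 HNF4A targets included Cyp8b1 (0.48), Ttr (0.18) and Apoa2 (0.14), and of 6 retinoic acid targets Dhrs3 (0.57) alone passed. All these counts are of the cosine. The test of time points passed for 6 LXR, 8 CAR and PXR, 6 thyroid hormone, 3 ERRalpha, 2 HNF4A and 1 retinoic acid targets. In the same order JTK passed for 2, 4, 4, 3, 1 and 1. Of all genes tested 26.3% passed the test of time points and 14.0% JTK.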

How the data were processed

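RNA of 18 livers was sequenced as polyA RNA, with single libraries per liver. The authors removed adapters with cutadapt, quantified reads with RSEM 1.2.20 on GRCm38 (Ensembl 84) and normalised the estimated counts with limma, and CASAVA 1.8.2 is also named in the submitters' processing notes. The values deposited by the authors are a linear signal, the estimated read count plus 0.5 per 1000000 reads of an effective library size. Only 41.1% to 50.0% of values per liver came out as whole reads (within 0.01), so no count test was used. Whether reads were counted by strand is not given in the sources used here.

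Of 14451 genes 14449 were tested, those above the lowest value in at least 1 liver. A 24 h cosine and sine were fitted to log2(value + 1) with limma 3.58.1 (R 4.3.3), and separately the 6 time points, over all 18 livers, with Benjamini–Hochberg adjustment over all genes and a threshold of 0.05. JTK was written in Python 3.11.15 (numpy 2.4.6, scipy 1.17.1, pandas 2.3.3) with orders of 20, 24 and 28 h. It was adjusted over orders and then over genes. CircaN and MetaCycle were not run for these genes. The scripts were tested on simulated data. Fold changes on the log2(value + 1) scale understate those of low genes. Coordinates and exon lengths are from GENCODE M21 (GRCm38). Each time point has 3 mice, and the test of time points sets the differences between times against the spread between mice. The residual of the cosine fit also holds any departure of the time point means from a cosine. JTK uses ranks, and the permutation test shuffles the livers over the time labels.

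Genes passing both the cosine and JTK, or with a fitted fold of at least 1.5, were given with every liver, the others by their range over time points, and of each other list up to 4 called genes of the largest amplitude were named. Some genes of these other lists are not reported here. The 33 genes and all lists were chosen with earlier results of these data known. The pairs of overlapping exons were listed after the annotation had been seen. Alternatives were pseudocounts of 0 and 5, a mean value of at least 1, 2 other scalings, another limma prior, 24 h alone for JTK, ranks for the pairs, a threshold of 0.01 and each liver left out.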

Additional observations from a re-analysis of the deposited data

How the results depend on the processing

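With each liver left out in turn, the 24 h cosine passed in 17 to 21 of the 33 genes, the test of time points in 16 to 19 and JTK in 3 to 11, and 15 of the 21 rhythmic genes passed in all 18 fits. Over all 14449 genes tested the counts fell as well. They were 4573 to 5088 for the cosine, 3245 to 3598 for the time points and 1127 to 1793 for JTK. With every liver they were 5103, 3802 and 2018. The JTK count was 7 without ZT1 replicate 1 or ZT9 replicate 3, 6 without ZT5 replicate 1 or ZT9 replicate 1, 5 without ZT5 replicate 2 or 3, ZT13 replicate 1 or ZT17 replicate 2 or 3, 4 without ZT13 replicate 2 or 3, and 3 without ZT17 replicate 1. The counts of rhythmic genes over the other lists lay between 56 and 64. At a threshold of 0.01 the counts were 14 for the cosine, 11 for the time points, 1 for JTK and 39 for the lists, since fewer genes pass by construction. Over all genes tested 2862, 1924 and 298 then passed the cosine, the time points and JTK. The permutation adjusted p without 1 liver was 0.00018 to 0.00144 for Nr1h3 and Nr1h2, 6e-05 to 0.00213 for Rxra and Rxrb, 0.00034 to 0.00424 for Thrb and Thra, 0.00084 to 0.00696 for Nr2c2 and Nr2c1, 0.0741 to 0.277 for Nr1i3 and Nr1i2, and 0.0361 to 0.125 for Ncoa2 and Ncoa1. The Ncoa2 and Ncoa1 pair passed with a pseudocount of 5 (permutation adjusted p = 0.0325) and on ranks (0.0395), and the cause was not tested. No called amplitude was reversed under the alternatives run, but the even balance of light-phase to dark-phase peaks moved from 11 and 10 to 9 and 10 without ZT17 replicate 2 and to 8 and 9 without ZT5 replicate 3. No paired analysis was possible because the labels give no replicate numbers shared across time points. Depth limits Nr2f1, Nr4a1, Ppargc1b and Rarb most, and 1 cycle of 6 times cannot separate a rhythm from a single rise and fall.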

Other observations

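Among cell type markers, 4 of 8 of Kupffer cells were rhythmic by the 24 h cosine (35.3% of all genes tested were), and the largest amplitudes were those of the scavenger receptor Marco (0.75), Cd5l (0.59), the phosphatidylserine receptor Timd4 (0.38) and the complement gene C1qb (0.35). By the cosine, of 5 cholangiocyte markers 3 were rhythmic (Sox9 at 0.57, Krt19 at 0.39 and Epcam at 0.26), of 6 hepatocyte markers 3 (Tat at 0.38, Serpina1c at 0.20 and Ttr at 0.18), and of 8 stellate cell markers Col3a1 (0.32) alone. The test of time points passed for 1 of 8 Kupffer cell, 1 of 5 cholangiocyte, 2 of 6 hepatocyte and 0 of 8 stellate cell markers. In the same order JTK passed for 0, 1, 2 and 0. Of the genes whose exons overlap one of the 33, Ocel1, on the strand opposite to Nr2f6, was rhythmic with an amplitude of 0.42 and a peak at 18.1 h.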
